A study of Mus musculus with 9 samples.

Results

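Mitochondrial ribosomal proteins are encoded in the nucleus, made in the cytosol and imported into the mitochondrion. There they form the mitoribosome, which translates the few respiratory chain subunits that the mitochondrial genome still encodes. A small subunit reads the messenger RNA and a large subunit joins the amino acids. Many of the proteins have a bacterial counterpart, and others are found only in mitochondria. In macrophages the use of the respiratory chain is known to differ between activation states. The genes described here are those of all non-control spots whose array name starts with Mrpl (large subunit) or Mrps (small subunit) and a digit. These were 77 genes on 127 spots, read by 100 probes. Of the 77 genes, 75 were tested among 16461 genes in all.

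Messenger RNA was measured on 9 single-colour Agilent arrays with Cy3-labelled RNA from C57BL/6J mice, 3 arrays in each of 3 groups. F4/80high TAMs and F4/80low TAMs are tumour-associated macrophages taken from a fibrosarcoma and divided by how much they carry of the macrophage surface protein in their names, and PECs are peritoneal exudate cells, labelled as control macrophages. The labels give no age, sex, sort gate or other treatment, and do not say how the fibrosarcoma was raised. The samples of a group are called biological replicates, without a statement that each came from a separate animal, so a p-value here covers no more than the spread among these arrays, which may be technical. The groups differ in tissue as well as in the tumour, and tissue and tumour cannot be told apart. In bulk RNA, fewer cells of a type and less RNA per cell cannot be told apart.

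The share of non-control spots that stood well above background ran from 36.1% to 38.3% over the arrays, and no spot was saturated. The 9 arrays lay on 2 slides: all 6 TAM arrays and PECs replicate 1 on slide 1, and PECs replicates 2 and 3 on slide 2. All 8 macrophage markers checked were above background on every F4/80high TAM array and every PEC array, and 7 of 8 on every F4/80low TAM array, where Mertk was above background on none. The summed linear level of the 8, in multiples of each array's 75th percentile, was 616 to 931 in F4/80high TAMs, 496 to 725 in F4/80low TAMs and 902 to 1123 in PECs. In F4/80low TAMs 5 of the 8 were lower than in PECs and none higher (median −2.08; 5 lower with slide as a block), and in F4/80high TAMs 2 were lower and 1 higher (median −0.37; 2 lower and none higher with the block). On the same scale the summed level of 11 neutrophil markers was 230 to 335 in F4/80high TAMs, 1879 to 7892 in F4/80low TAMs and 129 to 170 in PECs. Against PECs, 4 of the 11 were higher and 1 lower in F4/80high TAMs, and 9 were higher and none lower in F4/80low TAMs. Summed T cell markers (10 genes) gave 13.2 to 17.7 in F4/80high TAMs, 29.0 to 56.7 in F4/80low TAMs and 8.43 to 13.5 in PECs, and summed NK cell markers (10 genes) gave 9.79 to 12 in F4/80high TAMs, 33.6 to 51.9 in F4/80low TAMs and 9.35 to 11.6 in PECs. Among 9 T cell markers tested, 2 were higher and 3 lower in F4/80high TAMs than in PECs (median 0.29, and −0.45 with slide as a block). In F4/80low TAMs 7 were higher and none lower. For 7 NK cell markers tested, 1 was higher and 1 lower in F4/80high TAMs, and all 7 were higher in F4/80low TAMs. The T cell genes Cd3d, Cd3g, Cd8a and Cd8b1 and the NK cell genes Klrb1c, Klrd1, Klre1, Gzma and Eomes were above background on no F4/80high TAM array and on no PEC array, and each was so on at least 1 F4/80low TAM array. Of 5 B cell markers, none was above background on all 3 arrays of any group. Summed dendritic cell markers (7 genes) were 290 to 318 in F4/80high TAMs, 259 to 303 in F4/80low TAMs and 127 to 191 in PECs. These sums rest on few genes. Above background on no array were 4 of the 7 in F4/80high TAMs, 3 in F4/80low TAMs and 5 in PECs. Among 4 tested, 3 were higher and none lower than in PECs in each TAM subset. Summed fibroblast and stroma markers (9 genes) were 8.32 to 11.4 in F4/80high TAMs, 9.69 to 20.9 in F4/80low TAMs and 2.45 to 3.03 in PECs. Above background on no array were 5 of the 9 in F4/80high TAMs, 3 in F4/80low TAMs and 6 in PECs. Among 6 tested, 2 were higher and 1 lower in F4/80high TAMs than in PECs, and 3 were higher and none lower in F4/80low TAMs. Summed mast cell and eosinophil markers (8 genes) were 1.23 to 1.59 in F4/80high TAMs, 2.80 to 5.88 in F4/80low TAMs and 5.64 to 8.66 in PECs. Yet 6 of the 8 were above background on no PEC array and 1 on all 3. Among 3 tested, 2 were higher and 1 lower than in PECs in each TAM subset, against the direction of the sum. Beside these marker counts, 25.0% of all genes were higher and 28.0% lower in F4/80high TAMs than in PECs. In F4/80low TAMs 22.7% were higher and 29.2% lower. The part of such cells in the values below was not tested in any group.

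Of the 77 genes, 49 encode large-subunit proteins and 26 small-subunit proteins, counting Mrps18a and Mrps30 with the large subunit, where their proteins are found. The other two carry the name without the role. Mrps36 was named as a small-subunit protein and encodes a component of the 2-oxoglutarate dehydrogenase complex, and Mrps36-ps1 is its pseudogene. Mrps36-ps1 and Mrpl21 were above background on no array and were not tested. The remaining 75 passed the filter on dim probes, which asks for a signal well above background throughout some group, as 74 ribosomal protein genes and Mrps36. A level below is the log2 processed signal minus the 75th percentile of that array, and a difference is a log2 fold change between group means of 3 arrays. A gene is called where limma's two-sided test gave a Benjamini-Hochberg adjusted p under 0.05 over all 16461 genes. Coordinates beside a gene below are those of its probe in build mm9, as the scanner files give them; no annotation of that build was used, so exon or UTR is not stated. Levels of different genes come from different probes and are not set against each other.

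The promoters of 5 members are shown, because these genes carry the largest or the steadiest differences below. Sequences are from RefSeq (build GRCm38.p6) and hold the 250 bases before the annotated start, 5′ to 3′ on the gene's strand. Capitals mark matches to a motif on either strand.
Mrpl41, chr2:24975099-24975348, minus strand: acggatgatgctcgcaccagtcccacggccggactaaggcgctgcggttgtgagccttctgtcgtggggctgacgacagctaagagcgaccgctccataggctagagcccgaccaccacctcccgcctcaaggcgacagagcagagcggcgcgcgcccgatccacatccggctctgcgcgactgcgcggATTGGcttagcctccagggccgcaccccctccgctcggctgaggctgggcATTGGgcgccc
Mrpl34, chr8:71464676-71464925, plus strand: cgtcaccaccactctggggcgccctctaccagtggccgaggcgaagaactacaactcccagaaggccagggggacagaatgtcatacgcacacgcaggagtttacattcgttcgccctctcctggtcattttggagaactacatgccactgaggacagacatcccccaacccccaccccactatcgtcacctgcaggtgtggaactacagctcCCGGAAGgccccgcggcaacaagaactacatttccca
Mrpl45, chr11:97315466-97315715, plus strand: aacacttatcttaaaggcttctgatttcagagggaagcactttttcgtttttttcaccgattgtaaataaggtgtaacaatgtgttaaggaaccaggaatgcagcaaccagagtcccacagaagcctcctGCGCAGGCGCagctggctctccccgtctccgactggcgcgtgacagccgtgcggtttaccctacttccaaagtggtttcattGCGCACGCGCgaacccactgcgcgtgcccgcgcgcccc
Mrpl39, chr16:84735245-84735494, minus strand: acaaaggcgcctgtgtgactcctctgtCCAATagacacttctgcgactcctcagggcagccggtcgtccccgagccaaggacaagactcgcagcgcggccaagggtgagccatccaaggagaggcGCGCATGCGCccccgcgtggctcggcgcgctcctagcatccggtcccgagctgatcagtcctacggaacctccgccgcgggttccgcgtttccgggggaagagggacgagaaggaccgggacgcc
Mrps6, chr16:92058086-92058335, plus strand: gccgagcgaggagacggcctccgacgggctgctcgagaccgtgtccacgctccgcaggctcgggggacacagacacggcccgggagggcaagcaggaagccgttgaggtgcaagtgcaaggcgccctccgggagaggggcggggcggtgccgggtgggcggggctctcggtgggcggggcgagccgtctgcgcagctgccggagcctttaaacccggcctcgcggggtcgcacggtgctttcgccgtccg
The motifs searched were those of NRF1 (GCGCA and GCGC with any 1 base between them) and of ETS factors such as GABP (CCGGAAG), both known from promoters of nuclear genes for mitochondrial proteins, of YY1 (AANATGGCG), the E-box (CACGTG), the CCAAT box (CCAAT) and the TATA box (TATAAA), on both strands of a 300-base window that ends 50 bases after the start. The NRF1 match of Mrpl39 reads the same on both strands and is a single site. Mrpl45 holds 2 NRF1 matches before the start and 1 after it, Mrpl34 an ETS match 37 bases before the start, Mrpl41 2 CCAAT boxes on the reverse strand, and Mrps6 none of the 6 motifs. A window was at hand for 66 of the 75 ribosomal protein genes. The NRF1 motif was in 18.2% of these 66 windows, against 11.3% of 9256 genes tested with a window and 5.19% of all 27025 genes with a window. The ETS motif was in 36.4%, against 20.5% and 9.93%, and the YY1 motif in 15.2%, against 6.08% and 2.76%. The CCAAT box (39.4%, against 42.7% and 41.1%), the E-box (7.58%, against 11.9% and 8.09%) and the TATA box (7.58%, against 9.22% and 15.7%) were not more common than in the tested genes. These shares describe letters, and whether a factor binds there was not measured.

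Most ribosomal protein genes lay lower in both TAM subsets than in PECs, and much of that distance belonged to the PEC arrays of slide 2. Each member was centred on the mean of its 3 group means, and the median over the 75 members was taken on each array. It was 0.00, −0.03 and −0.10 on the F4/80high TAM arrays, −0.09, −0.26 and −0.13 on the F4/80low TAM arrays and 0.04, 0.28 and 0.42 on the PEC arrays. The 2 highest values are those of slide 2, and PECs replicate 1, on the slide of the TAMs, lay 0.04 above 0. The same median over all genes tested ranged from −0.07 to 0.08 over the 9 arrays. Comparisons with PECs are therefore given without and with slide as a block. The second value rests on PECs replicate 1 for the distance from the TAMs.

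**Figure D1:**
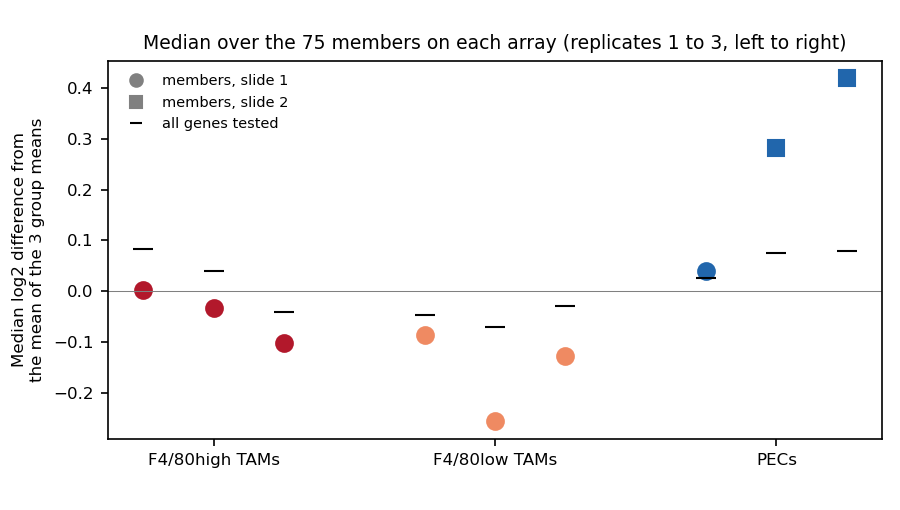
Median over the 75 members on each array (y axis, log2 difference from the mean of the 3 group means); circles are arrays of slide 1, squares arrays of slide 2, and black dashes the same median over all genes tested. The PEC arrays of slide 2 lie at 0.28 and 0.42, above PECs replicate 1 at 0.04 and all 6 TAM arrays.

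**Figure D2:**
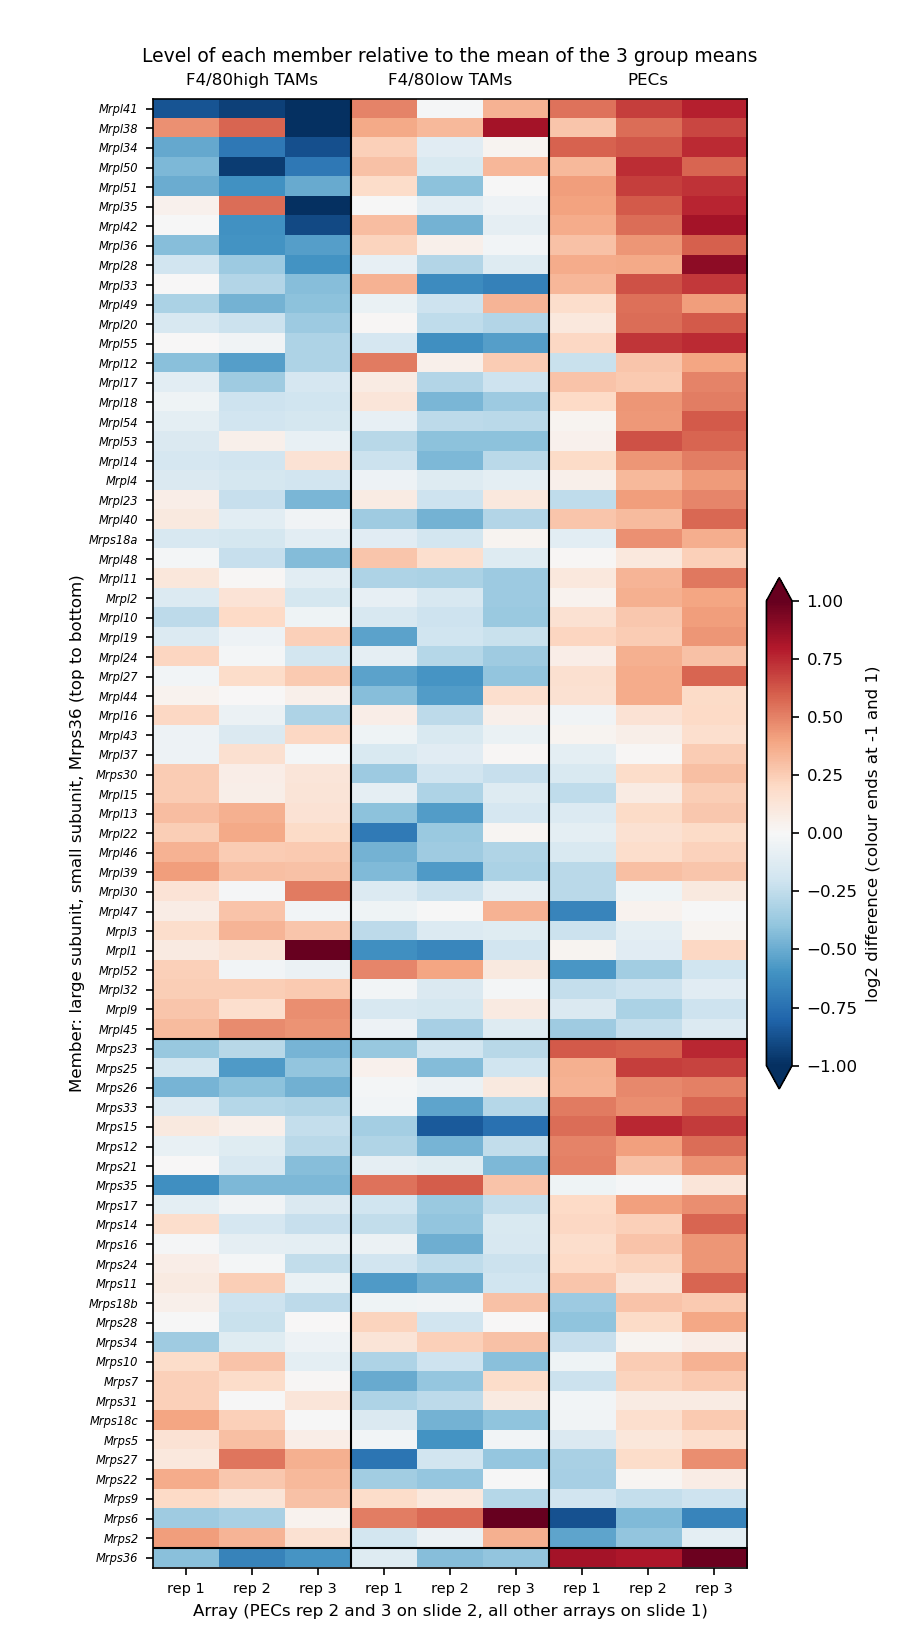
Each row is a member and each column an array; colour is the log2 level minus the mean of that member's 3 group means, with the scale ending at −1 and 1. Rows are ordered within each subunit by the difference between F4/80high TAMs and PECs, and the cells of Mrpl35 and Mrpl38 on F4/80high TAMs replicate 3 come from an area of lost spots described in the text.

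In F4/80high TAMs compared with PECs, 26 of the 75 members were lower and 4 were higher. The fall was steepest for Mrpl41, Mrps36, Mrpl34, Mrpl50 and Mrpl51, at 2.21- to 3.06-fold, and the rises of Mrpl45, Mrps2, Mrpl9 and Mrpl32 were at most 1.58-fold. The called share, 40.0%, was below the 53.1% of all genes called in this comparison; by direction, 34.7% of members were lower and 5.33% higher, beside 28.0% and 25.0% of all genes. The median difference of the members was −0.32, and that of all genes 0.00. The arrays of the 2 groups did not overlap for 45 of 75 members (60.0%, beside 65.2% of all genes), 34 lower and 11 higher (34.0% and 31.2% of all genes). With slide as a block 13 members were called, 10 lower and 3 higher, beside 34.2% of all genes, and the median was −0.12; within slide 1 alone 8 were lower and 1 higher, beside 29.7% of all genes. Without PECs replicate 2 the count was 19, and without PECs replicate 3 it was 17. With median centring, which shifts all genes of an array, the split was 23 lower and 8 higher. Shares of all genes are not given for median centring or the fits without 1 array, so these counts do not set the members apart.

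Mrpl41 (chr2:24829696-24829755, minus strand) encodes a large-subunit protein found only in mitochondria. Its level was 3.00, 2.93 and 2.82 on the F4/80high TAM arrays, against 4.41, 4.55 and 4.64 on the PEC arrays. All 3 F4/80high TAM arrays lay far below every PEC array. The difference was −1.62 (SE 0.18, adjusted p 7.31e-05), a 3.06-fold fall, and −1.49 with slide as a block (adjusted p 0.00272). This holds for the brighter of 2 probes. The other lay at −0.91 on average over the 9 arrays and gave 0.78 (SE 0.31, adjusted p 0.0573 in the fit of all probes), and the mean of both probes gave −0.42, which was not called. Its promoter above holds no NRF1, ETS or YY1 match.

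Mrpl34 (chr8:73989526-73989585, plus strand), a small basic large-subunit protein with a bacterial counterpart, was at 2.55, 2.35 and 2.19 in F4/80high TAMs, against 3.65, 3.68 and 3.81 in PECs. It fell 2.56-fold (−1.36, SE 0.17, adjusted p 0.000161), and by 1.29 on the log2 scale with slide as a block. Mrpl50 (chr4:49525602-49525661, minus strand), found only in mitochondria, was at 1.13, 0.63 and 0.87 in F4/80high TAMs, against 1.90, 2.32 and 2.17 in PECs. It fell 2.38-fold (−1.25, SE 0.21, adjusted p 0.000931), with −1.03 under the slide block. A second, dimmer probe of Mrpl50 gave −0.34 (SE 0.21, adjusted p 0.191 in the fit of all probes), which was not called. Mrpl51 (chr6:125143362-125143421, plus strand), also found only in mitochondria, was at 4.68, 4.57 and 4.67 in F4/80high TAMs, against 5.59, 5.86 and 5.89 in PECs. The fall was 2.21-fold (−1.14, SE 0.19, adjusted p 0.000934), and −0.95 under the slide block. In all 3 genes every F4/80high TAM array lay below every PEC array, the one of slide 1 included, and the calls held under every alternative run for them.

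Among small-subunit names, Mrps23 and Mrps36 fell most. Mrps23 (chr11:88024940-88024999, plus strand), a mitochondria-specific protein of the body of the small subunit, was at 4.14, 4.24 and 4.05 in F4/80high TAMs, against 5.13, 5.12 and 5.28 in PECs. The difference was −1.03 (SE 0.15, adjusted p 0.000379), and −0.99 under the slide block. Its second, dimmer probe gave −0.31 (SE 0.15, adjusted p 0.121 in the fit of all probes), which was not called. Mrps36 (chr13:101506215-101509014, minus strand), the 2-oxoglutarate dehydrogenase component, was at 3.63, 3.38 and 3.46, against 4.88, 4.86 and 5.03 in PECs. Its fall was 2.70-fold (−1.43, SE 0.16, adjusted p 8.24e-05), with −1.39 under the slide block, and its second probe gave −1.71. The PEC arrays of the 2 slides lay close together for both genes. Mrps12 (chr7:29524837-29524896, minus strand), whose protein sits at the decoding centre, was at 3.93, 3.89 and 3.74, against 4.50, 4.42 and 4.57 in PECs, a 1.56-fold fall (−0.64, SE 0.15, adjusted p 0.00588). Its fall was called under the slide block (−0.65, adjusted p 0.0448) and not within slide 1 alone (adjusted p 0.0745).

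The 4 higher members had smaller differences. Mrpl45 (chr11:97190353-97190412, plus strand) lies at the exit of the peptide tunnel, where in human mitochondria it ties the ribosome to the inner membrane. It was at 3.81, 3.97 and 3.94 in F4/80high TAMs, against 3.14, 3.25 and 3.36 in PECs. It rose 1.58-fold (0.66, SE 0.16, adjusted p 0.00624), with 0.77 under the slide block (adjusted p 0.0246), and the groups did not overlap. Mrps2 (chr2:28326283-28326342, plus strand), a small-subunit protein with a bacterial counterpart, was at 2.14, 2.06 and 1.88, against 1.19, 1.33 and 1.62 in PECs (0.65, SE 0.20, adjusted p 0.0219). Its call held with slide as a block (0.83) and was lost within slide 1 (0.83, adjusted p 0.0679), and without PECs replicate 1 (0.55) or 2 (0.62) or F4/80high TAMs replicate 1 (0.59) or 2 (0.63). Mrpl9 (chr3:94252112-94252171, plus strand), with a bacterial counterpart, was at 2.91, 2.80 and 3.09, against 2.49, 2.31 and 2.42 in PECs (0.53, SE 0.16, adjusted p 0.0207). The call was lost with slide as a block (0.45), without PECs replicate 2 (0.48) or 3 (0.54) and without F4/80high TAMs replicate 3 (0.45). Mrpl32 (chr13:14702894-14702953, minus strand), whose protein is cut by the m-AAA protease before it joins the ribosome in yeast and mouse, was at 3.05, 3.05 and 3.06, against 2.57, 2.59 and 2.69 in PECs (0.44, SE 0.14, adjusted p 0.0254). With 3 tightly grouped arrays it still lost the call with slide as a block (0.49), without PECs replicate 2 (0.43) or 3 (0.47) and without any single F4/80high TAM array (0.43 to 0.44), and normexp background correction gave 0.22. NRF1 motifs were in the windows of 3 of these 4 members (Mrpl45, Mrpl9 and Mrpl32), of 4 of 22 lower members with a window and of 5 of 39 not called, and in neither of the 2 members with a window that were higher in F4/80low TAMs than in PECs. Of the 3, Mrpl45 alone was called with slide as a block. Between the TAM subsets NRF1 motifs were in 2 of 10 higher members, 2 of 7 lower and 8 of 48 not called. The other motifs, for F4/80high TAMs against PECs, are given as higher, lower and not called. They were in 0, 10 and 13 members (ETS), 0, 2 and 8 (YY1) and 1, 13 and 12 (CCAAT box). For the E-box these were 0, 2 and 3, and for the TATA box 0, 1 and 4. A link between motif and direction was not tested.

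**Figure D3:**
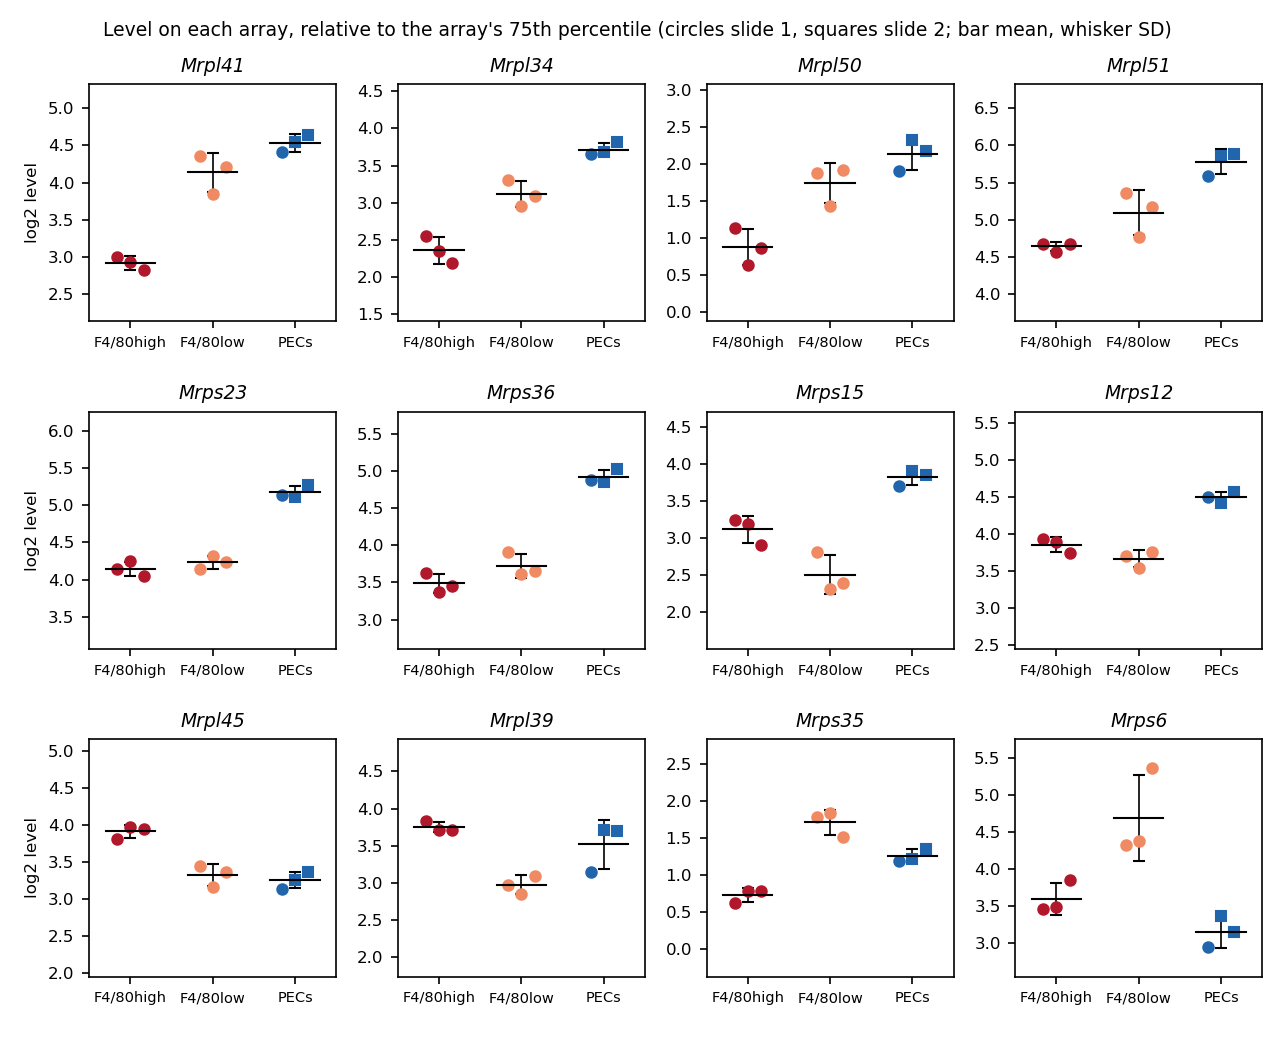
Level of 12 members on each array (y axis, log2 relative to the array's 75th percentile; every panel spans the same height); circles are arrays of slide 1, squares arrays of slide 2, horizontal bars group means and whiskers the SD of 3 arrays. Mrpl41, Mrpl34 and Mrpl50 lie lowest in F4/80high TAMs, Mrpl45 lies highest there, and Mrps35 lies lowest in F4/80high TAMs and highest in F4/80low TAMs.

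In F4/80low TAMs compared with PECs, 34 of the 75 members were lower and 3 were higher. Mrps15, Mrps36, Mrpl55, Mrps23 and Mrpl27 had the largest falls among members whose arrays did not overlap, at 1.84- to 2.48-fold, and Mrps6, Mrpl52 and Mrps35 rose. The called share, 49.3%, was close to the 51.9% of all genes; by direction, 45.3% of members were lower and 4.0% higher, beside 29.2% and 22.7% of all genes. The median of the members was −0.47 and that of all genes −0.09. The arrays did not overlap for 47 of 75 members (62.7%, beside 59.3% of all genes), 43 lower and 4 higher (33.2% and 26.0% of all genes). Of the 37 called members, Mrpl33 alone had overlapping arrays. With slide as a block 8 members were called, 5 lower and 3 higher, beside 29.8% of all genes, and the median was −0.24; within slide 1 alone 4 were lower and 2 higher, beside 25.1%. The count was 22 without PECs replicate 2, 16 without PECs replicate 3 and 21 without F4/80low TAMs replicate 2. The split was 20 lower and 7 higher after quantile normalization, and 14 lower and 8 higher with the percentile taken over probes above background on all arrays. Both settings act on all genes. Shares of all genes are not given for them or for the fits without 1 array, so these counts do not set the members apart.

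Mrps15 (chr4:125728625-125730774, plus strand), a small-subunit protein that binds the ribosomal RNA early in assembly in bacteria, was at 2.81, 2.31 and 2.40 in F4/80low TAMs, against 3.70, 3.90 and 3.84 in PECs. Every F4/80low TAM array lay well below every PEC array. It fell 2.48-fold (−1.31, SE 0.19, adjusted p 0.000457), with −1.2 under the slide block (adjusted p 0.0119). Mrps12 was at 3.71, 3.54 and 3.76, against 4.50, 4.42 and 4.57 in PECs, a fall of 1.78-fold (−0.83, SE 0.15, adjusted p 0.00172; −0.84 under the slide block). Mrps23 was at 4.14, 4.32 and 4.24, against 5.13, 5.12 and 5.28 in PECs (−0.94, SE 0.15, adjusted p 0.00078; −0.90 under the slide block). Mrps36 was at 3.91, 3.62 and 3.65, against 4.88, 4.86 and 5.03 in PECs (−1.19, SE 0.16, adjusted p 0.000325; −1.15 under the slide block). These 4 calls were kept under every alternative run for them.

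Mrpl55 (chr11:59019327-59019386, plus strand), a large-subunit protein, was at 3.99, 3.54 and 3.61 in F4/80low TAMs, against 4.37, 4.87 and 4.90 in PECs. The difference was −1.0 (SE 0.21, adjusted p 0.00379) and −0.65 with slide as a block, where it was not called. Mrpl27 (chr11:94521032-94521091, plus strand), whose bacterial counterpart reaches the peptidyl transferase centre, was at 3.80, 3.74 and 3.94, against 4.49, 4.71 and 4.91 in PECs. The difference was −0.88 (SE 0.17, adjusted p 0.00265) and −0.66 with slide as a block (adjusted p 0.0549). Both were lower than the PEC array of slide 1 on all 3 F4/80low TAM arrays.

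Of the higher members in F4/80low TAMs, Mrps6 had the widest range. Mrps6 (chr16:92112223-92112282, plus strand), a small-subunit protein with a bacterial counterpart, was at 4.32, 4.37 and 5.36 in F4/80low TAMs, against 2.94, 3.37 and 3.15 in PECs. F4/80low TAMs replicate 3 stood far above the rest, the groups did not overlap, and the rise was 2.89-fold (1.53, SE 0.28, adjusted p 0.00204; 1.74 under the slide block). Mrps6 overlaps Slc5a3, an inositol transporter gene, in the annotation, and Slc5a3 rose by 3.29 on the log2 scale in the same comparison (adjusted p 7.32e-05); whether the Mrps6 probe reads transcripts of both was not tested. Mrpl52 (chr14:55048507-55048566, plus strand), found only in mitochondria, was at 7.04, 6.95 and 6.66, against 5.98, 6.21 and 6.35 in PECs (0.70, SE 0.18, adjusted p 0.0106; 0.90 under the slide block). It was not called after normexp background correction (0.37). Mrps35 (chr6:147009999-147019119, plus strand), a mitochondria-specific protein of the head of the small subunit, was at 1.78, 1.84 and 1.52, against 1.19, 1.22 and 1.36 in PECs (0.46, SE 0.16, adjusted p 0.0365). Its call was lost with slide as a block (0.52), after normexp (0.23), without any single PEC array (0.42 to 0.51) and without F4/80low TAMs replicate 1 (0.42) or 2 (0.39). Neutrophil, T cell and NK cell markers were higher in these same arrays, as given above, and their part in these rises was not tested.

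**Figure D4:**
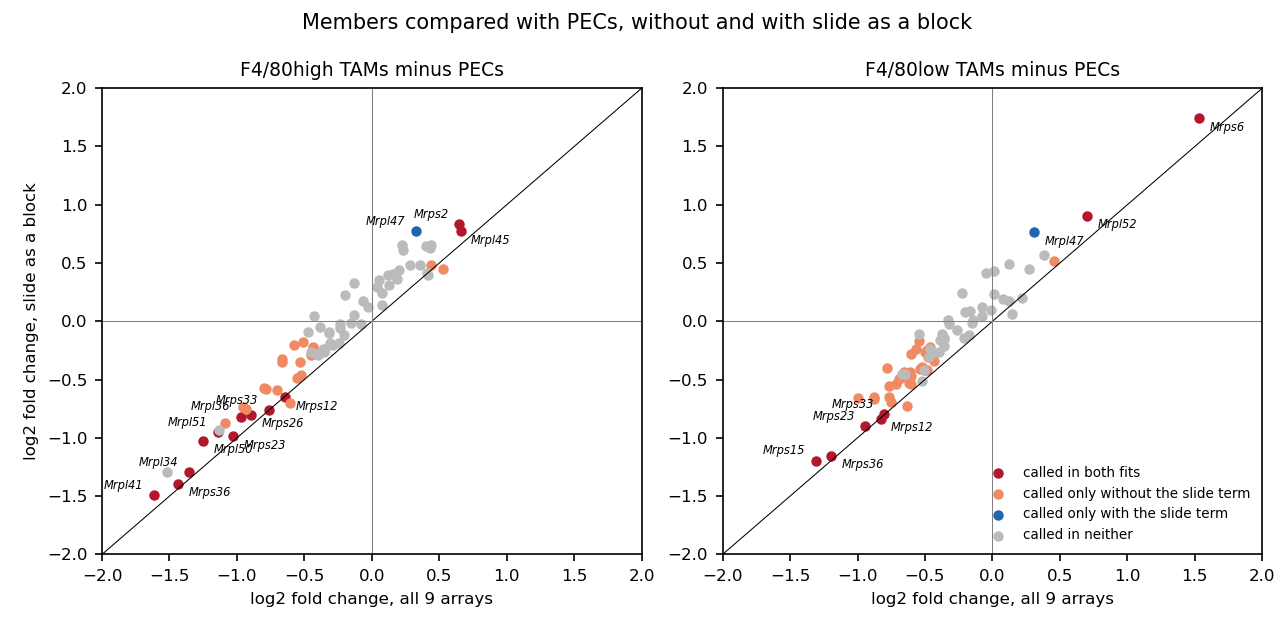
Log2 fold change of each member against PECs from all 9 arrays (x axis) and with slide as a block (y axis), for F4/80high TAMs (left) and F4/80low TAMs (right); colours show in which fit a member was called, and names mark those called with the slide term. Most points lie above the diagonal, nearer to 0 on the falling side, and 13 and 8 members were called with slide as a block.

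Mrpl47, whose protein also lies at the tunnel exit, was called against PECs with slide as a block, and neither without the block nor within slide 1 alone. It was at 3.05, 3.26 and 2.95 in F4/80high TAMs, at 2.93, 2.97 and 3.33 in F4/80low TAMs and at 2.31, 3.01 and 2.97 in PECs. The PEC array of slide 1 is the low value, and the groups overlap. Under the slide block the differences were 0.78 (adjusted p 0.0405) for F4/80high TAMs and 0.76 (adjusted p 0.0478) for F4/80low TAMs, and without it 0.32 and 0.31, neither called. A second, dimmer probe gave 0.54 for F4/80high TAMs without the block (adjusted p 0.0409 in the fit of all probes) and 0.24 for F4/80low TAMs, which was not called. It was chosen for mention after its values were seen.

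The comparison of F4/80high TAMs with F4/80low TAMs lies within slide 1. Of the 75 members, 11 were higher and 8 lower in F4/80high TAMs. Mrpl1, Mrpl39, Mrps27, Mrpl46 and Mrpl13 were the highest, at 1.57- to 1.91-fold, and Mrpl41, Mrps6, Mrps35, Mrpl50 and Mrpl34 the lowest, at 1.69- to 2.33-fold. The called share was 25.3%, beside 32.6% of all genes; 14.7% of members were higher and 10.7% lower, beside 18.6% and 14.0% of all genes. The median of the members was 0.15 and that of all genes 0.08. The arrays did not overlap for 38 of 75 members (50.7%, beside 46.7% of all genes), 26 higher and 12 lower (27.0% and 19.7% of all genes). The balance of directions moved with the scaling: 4 higher and 14 lower after quantile normalization, 6 and 10 with median centring, 2 and 14 with the percentile over probes above background on all arrays, 3 and 12 in the authors' deposited value table, and 16 and 7 after normexp. These settings act on all genes, and shares of all genes are not given for them, so the splits do not set the members apart. The deposited table, of 9703 probes, also holds fewer genes. The replicate numbers paired these arrays, and with them as a block 15 members were called, all among the 19. The count was 11 without F4/80high TAMs replicate 1, 6 without replicate 2 and 10 without replicate 3, and 12 and 11 without F4/80low TAMs replicates 1 and 2. For these fits and the replicate block, shares of all genes are not given either.

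Among the lower members, Mrps35 and Mrpl34 kept their calls in this comparison under every alternative run for them. Mrpl41 was at 3.00, 2.93 and 2.82 in F4/80high TAMs, against 4.36, 3.85 and 4.21 in F4/80low TAMs, with a wide gap between the groups. It was 2.33-fold lower (−1.22, SE 0.18, adjusted p 0.000915), and the mean of its 2 probes gave −0.54, which was not called. Mrps35 was at 0.62, 0.79 and 0.79, against 1.78, 1.84 and 1.52 in F4/80low TAMs, and was 1.97-fold lower (−0.98, SE 0.16, adjusted p 0.00158). It was the 1 member called in opposite directions against PECs, lower in F4/80high TAMs (−0.52, adjusted p 0.0199) and higher in F4/80low TAMs (0.46, adjusted p 0.0365). The first of these calls was lost with slide as a block (−0.46), without PECs replicate 3 (−0.47) and without F4/80high TAMs replicate 1 (−0.47); the losses of the second are given above. Mrpl34 was at 2.55, 2.35 and 2.19, against 3.30, 2.95 and 3.09 in F4/80low TAMs (−0.75, SE 0.17, adjusted p 0.00819). Mrpl50 was at 1.13, 0.63 and 0.87, against 1.87, 1.43 and 1.91 in F4/80low TAMs (−0.86, SE 0.21, adjusted p 0.0121). Its second probe gave −0.07, and the call was lost with the mean of both probes (−0.47) and without F4/80high TAMs replicate 2 (−0.74). Mrps6 was at 3.45, 3.48 and 3.85, against 4.32, 4.37 and 5.36 in F4/80low TAMs (−1.09, SE 0.28, adjusted p 0.0171). Mrps6 lost the call without F4/80high TAMs replicate 1 (−1.02) or 2 (−1.03). Slc5a3, which overlaps it, fell by 1.71 on the log2 scale (adjusted p 0.00449).

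Among the higher members, Mrpl39 and Mrpl46 kept their calls under every alternative run for them. Both encode mitochondria-specific proteins of the large subunit, Mrpl46 in the central protuberance. Mrpl39 (chr16:84718547-84718606, minus strand) was at 3.83, 3.71 and 3.71 in F4/80high TAMs, against 2.97, 2.84 and 3.10 in F4/80low TAMs (0.78, SE 0.19, adjusted p 0.0128). Mrpl46 (chr7:85925385-85925444, minus strand) was at 2.41, 2.32 and 2.33, against 1.59, 1.71 and 1.76 in F4/80low TAMs (0.67, SE 0.16, adjusted p 0.012). In both genes the F4/80high TAM arrays lay close together and above every F4/80low TAM array. Mrpl45 was at 3.81, 3.97 and 3.94, against 3.45, 3.16 and 3.37 in F4/80low TAMs (0.58, SE 0.16, adjusted p 0.0182). It was not called after quantile normalization (0.35) or with the percentile over probes above background on all arrays (0.35), without F4/80high TAMs replicate 2 (0.55) or 3 (0.57), or without F4/80low TAMs replicate 2 (0.50).

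The other named higher members lost their calls under several alternatives. Mrpl1 (chr5:96667890-96667949, plus strand), a protein of the stalk beside the tRNA exit, was at 0.10, 0.14 and 1.14 in F4/80high TAMs, against −0.60, −0.64 and −0.18 in F4/80low TAMs. Replicate 3 of the F4/80high TAMs stood far above the other arrays of its group, and the difference of 0.93 (SE 0.29, adjusted p 0.0332) was 0.59 without it and no longer called. It was also lost without F4/80low TAMs replicate 1 (0.87) or 2 (0.85), with median centring (0.84) and with the percentile over probes above background on all arrays (0.70). Mrps27, which is found only in mitochondria, was at 0.27, 0.71 and 0.53, against −0.56, −0.02 and −0.22 in F4/80low TAMs (0.77, SE 0.24, adjusted p 0.0371). The call was lost without F4/80high TAMs replicate 2 (0.67) or 3 (0.76) and without F4/80low TAMs replicate 1 (0.62) or 3 (0.80). It was also lost after normexp (0.38), with median centring (0.68) and with that percentile (0.54). Mrpl13 (chr15:55365795-55365854, minus strand), with a bacterial counterpart, was at 4.54, 4.59 and 4.38, against 3.83, 3.68 and 4.07 in F4/80low TAMs (0.65, SE 0.18, adjusted p 0.022). It lost the call without F4/80high TAMs replicate 1 (0.63) or 2 (0.60) and without F4/80low TAMs replicate 1 (0.63) or 2 (0.56), after quantile normalization (0.39) and with that percentile (0.42). Mrpl27 was at 4.31, 4.51 and 4.59, against 3.80, 3.74 and 3.94 in F4/80low TAMs (0.64, SE 0.17, adjusted p 0.0185), and was not called without F4/80high TAMs replicate 2 (0.62) or 3 (0.58) or F4/80low TAMs replicate 2 (0.60). Mrpl27 was also not called after quantile normalization (0.39), with that percentile (0.41) or in the authors' deposited value table (0.39). Mrps15 was at 3.24, 3.19 and 2.91, against 2.81, 2.31 and 2.40 in F4/80low TAMs (0.61, SE 0.19, adjusted p 0.0329). It lost the call with the replicate block (0.61) and without F4/80high TAMs replicate 1 (0.54) or 2 (0.57) or F4/80low TAMs replicate 2 (0.51) or 3 (0.56), after quantile normalization (0.43) and with that percentile (0.38).

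**Figure D5:**
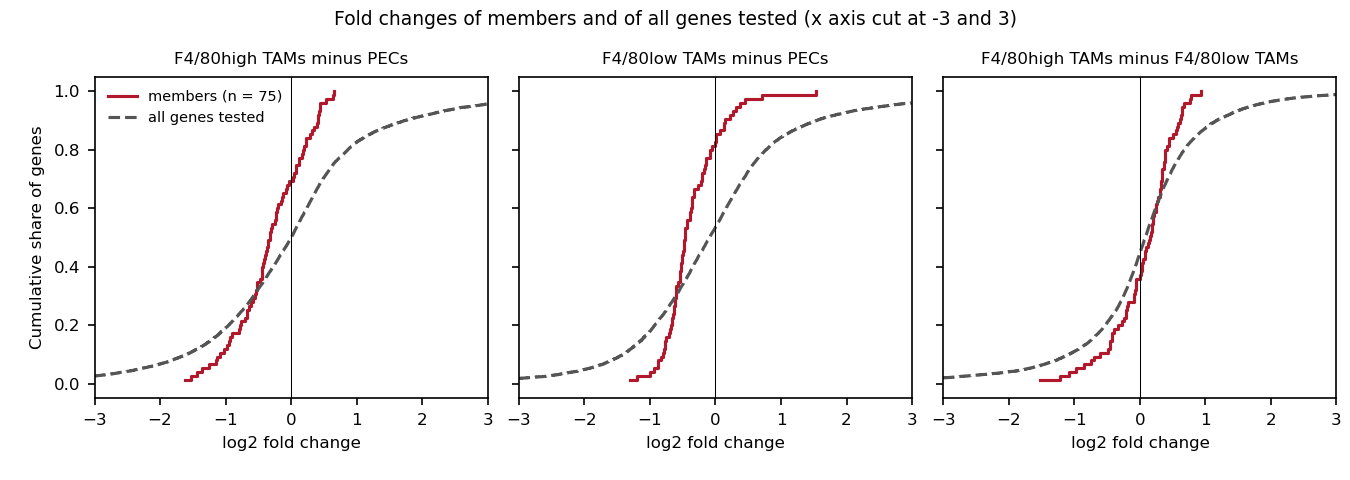
Cumulative share of genes (y axis) by log2 fold change (x axis, cut at −3 and 3) in the 3 comparisons, for the 75 members (red) and all 16461 genes tested (grey dashes). The members span a narrower range than all genes, and their medians are −0.32, −0.47 and 0.15, beside 0.00, −0.09 and 0.08 for all genes.

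By subunit, 16 of 48 large-subunit genes were lower and 3 higher in F4/80high TAMs than in PECs, and 9 of 26 small-subunit genes were lower and 1 higher, with medians of −0.33 and −0.22, beside 28.0% of all genes lower and 25.0% higher. Under the slide block 5 of the 48 were lower and 2 higher, and 4 of the 26 lower and 1 higher. Of all genes 17.7% were lower and 16.5% higher under that block. In F4/80low TAMs against PECs, 20 of the 48 were lower and 1 higher, and 13 of the 26 were lower and 2 higher, with medians of −0.46 and −0.48, beside 29.2% of all genes lower and 22.7% higher. Under the slide block none of the 48 was lower and 2 were higher, and 4 of the 26 were lower and 1 higher. Of all genes 16.4% were lower and 13.4% higher under that block. Between the TAM subsets, 7 large-subunit genes were higher and 5 lower in F4/80high TAMs, and 4 small-subunit genes were higher and 3 lower, beside 18.6% and 14.0% of all genes. By descent, 13 of 43 genes with a bacterial counterpart and 11 of 27 found only in mitochondria were lower in F4/80high TAMs than in PECs, and 22 of 43 and 10 of 27 were lower in F4/80low TAMs. Under the slide block these counts were 3 and 6 in F4/80high TAMs and 2 and 2 in F4/80low TAMs. The subunits and the kinds of descent were not tested against each other. By place in the ribosome, 3 of 5 stalk genes (Mrpl10, Mrpl11 and Mrpl53) were lower in F4/80low TAMs than in PECs, as were 3 of 6 of the central protuberance (Mrpl18, Mrpl40 and Mrpl46), 1 of 5 of the catalytic core and tunnel wall (Mrpl27) and 2 of 7 of the tunnel exit (Mrpl17 and Mrpl24). None of these 9 genes was called with slide as a block, where their differences ran from −0.66 to −0.22. In the small subunit 4 of 8 head genes and 9 of 18 of the body and platform were lower in F4/80low TAMs. Of the other large-subunit genes 11 of 25 were lower. With slide as a block 1 of the head, 3 of the body and platform and none of the other large-subunit genes were lower.

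Members with roles known beyond the ribosome's frame gave the following values. Mrpl12 (chr11:120349740-120349799, plus strand), a stalk protein that recruits translation factors and that in human cells also binds the mitochondrial RNA polymerase, was at 3.83, 3.69 and 3.94 in F4/80high TAMs, at 4.77, 4.29 and 4.50 in F4/80low TAMs and at 4.03, 4.53 and 4.64 in PECs. F4/80high TAMs were the lowest group without overlap, at −0.70 beside F4/80low TAMs (SE 0.21, adjusted p 0.0299) and −0.58 beside PECs (SE 0.21, adjusted p 0.0426). The call against PECs was lost with slide as a block (−0.21), without PECs replicate 2 (−0.51) or 3 (−0.46) and without any single F4/80high TAM array (−0.64 to −0.51). The call against F4/80low TAMs was lost without any single F4/80high TAM array (−0.76 to −0.64) and without F4/80low TAMs replicate 1 (−0.58) or 3 (−0.71).

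Mrps16, a gene whose loss in humans causes a respiratory chain defect, was at 4.44, 4.37 and 4.35 in F4/80high TAMs, at 4.39, 3.96 and 4.29 in F4/80low TAMs and at 4.63, 4.73 and 4.89 in PECs. It was called lower in F4/80low TAMs than in PECs (−0.54, SE 0.17, adjusted p 0.025). That call did not hold under the slide block (−0.41), without PECs replicate 2 (−0.55) or 3 (−0.47) and without F4/80low TAMs replicate 2 (−0.41). It was also lost after quantile normalization (−0.34), with median centring (−0.38) and with the percentile over probes above background on all arrays (−0.28). Mrpl3, near the catalytic core, was at 4.30, 4.47 and 4.41 in F4/80high TAMs, at 3.87, 3.99 and 4.01 in F4/80low TAMs and at 3.92, 4.04 and 4.16 in PECs. Its F4/80high TAM arrays lay above all others, and neither difference was called (0.36 against PECs, adjusted p 0.07; 0.44 against F4/80low TAMs, adjusted p 0.0513). Mrps34, whose mutation in mouse and human impairs the small subunit, was at 4.11, 4.35 and 4.42 in F4/80high TAMs, at 4.60, 4.71 and 4.76 in F4/80low TAMs and at 4.24, 4.49 and 4.53 in PECs, with no difference called. Mrps34 was called lower in F4/80high TAMs than in F4/80low TAMs after quantile normalization (−0.65), with that percentile (−0.63) and with median centring (−0.49), against −0.40 here. Against PECs it was called higher in F4/80low TAMs after the first of these (0.47) and with the percentile (0.52), beside 0.27 here. Mrps18b, which has the relatives Mrps18a and Mrps18c, was at 4.83, 4.58 and 4.52 in F4/80high TAMs, at 4.74, 4.75 and 5.08 in F4/80low TAMs and at 4.42, 5.07 and 5.05 in PECs, and no difference was called. Mrps18c was higher in F4/80high TAMs than in F4/80low TAMs (0.55, SE 0.18, adjusted p 0.0421), and Mrps18a was called in no comparison.

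Mrpl35 and Mrpl38 had the largest spread in F4/80high TAMs, from a single array. On F4/80high TAMs replicate 3, 50 non-control spots lay over 8-fold under every other array, against 0 to 7 such spots on each other array, and 47 of the 50 lay in columns 1 to 4 between rows 261 and 322. The spots of Mrpl35 and Mrpl38 are in this area. Mrpl38, of the central protuberance, was at 1.19, 1.32 and −3.35 in F4/80high TAMs, at 1.12, 1.06 and 1.57 in F4/80low TAMs and at 1.02, 1.30 and 1.41 in PECs. Against PECs it gave −1.52 (SE 1.03, adjusted p 0.239), and 0.01 with the area left out. Mrpl35 was at −1.32, −0.80 and −3.57 in F4/80high TAMs, at −1.36, −1.46 and −1.41 in F4/80low TAMs and at −0.96, −0.74 and −0.59 in PECs. Against PECs it gave −1.13 (SE 0.58, adjusted p 0.13), and between the TAM subsets it was −0.48, and 0.35 with the area left out. The counts of called members were the same with and without the area, at 30 against PECs and 19 between the TAM subsets.

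For 21 members 2 or more probes were kept. The probes gave the same sign in 18 of 21 genes for F4/80high TAMs against PECs, in 19 for F4/80low TAMs against PECs and in 18 between the TAM subsets, and in no gene were 2 probes called in opposite directions. In the annotation 24 members overlap another gene, among them Mrpl43, which overlaps Twnk, the gene of the mitochondrial DNA helicase. Twnk was called in all 3 comparisons (−1.23, 1.03 and −2.26), and in neither comparison with PECs under the slide block, while Mrpl43 was called in none and stayed between 5.21 and 5.57 on all 9 arrays.

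The other genes of mitochondrial translation were read from lists written for this tissue. Beside their counts, 28.0% of all genes were lower and 25.0% higher in F4/80high TAMs than in PECs. In F4/80low TAMs 29.2% of all genes were lower and 22.7% higher. With slide as a block these shares were 17.7% and 16.5%, and 16.4% and 13.4%. Of 7 ribosomal subunit genes with other symbols, 5 were lower in F4/80high TAMs than in PECs (median −0.72) and 3 in F4/80low TAMs (median −0.42), and none was higher. Aurkaip1, a small-subunit protein, was the 1 of these called with slide as a block in F4/80high TAMs (−0.93, and −0.78 with the block, adjusted p 0.0442), and none was called so in F4/80low TAMs. Of 41 translation and assembly factors, 19 were lower and 2 higher in F4/80high TAMs than in PECs, and 22 were lower and 2 higher in F4/80low TAMs. Under the slide block 10 and 6 were lower, and 1 was higher in each. Rbfa, an assembly factor of the small subunit, fell by 1.99 on the log2 scale in F4/80high TAMs (SE 0.27, adjusted p 0.000283; −1.67 with the block). Mrm1, which methylates the large ribosomal RNA, fell by 1.64 (SE 0.18, adjusted p 7.9e-05; −1.49 with the block). Ptcd1, an RNA-binding protein of mitochondria, rose by 1.19 (SE 0.20, adjusted p 0.000876; 1.07 with the block). In F4/80low TAMs Mtrf1, a release factor, fell by 1.76 (SE 0.17, adjusted p 4.25e-05; −1.56 with the block), and Noa1, a GTPase needed for mitochondrial translation, rose by 1.25 (SE 0.24, adjusted p 0.00226; 1.56 with the block).

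Of 17 genes for charging mitochondrial tRNAs, 9 (52.9%) were lower in F4/80high TAMs than in PECs and 10 (58.8%) in F4/80low TAMs. None was higher (medians −0.87 and −0.64), and with slide as a block 8 and 5 were lower. Of all genes, 28.0% and 29.2% were lower without the block. Gatc, a subunit of the mitochondrial glutamyl-tRNA amidotransferase, fell by 1.80 in F4/80high TAMs (SE 0.18, adjusted p 3.71e-05) and by 1.24 in F4/80low TAMs (SE 0.18, adjusted p 0.000449), with −1.89 and −1.32 under the block. Of 13 genes of mitochondrial transcription and genome maintenance, 7 (53.8%) were lower and 1 higher in F4/80high TAMs, and 5 (38.5%) lower and 1 higher in F4/80low TAMs. The block left 2 lower and 1 higher in F4/80high TAMs, and 1 lower and none higher in F4/80low TAMs. Exog, a mitochondrial nuclease, fell by 2.25 and 2.06 (adjusted p 4.14e-05 and 9.68e-05), with −2.16 and −1.97 under the block. Tefm, the mitochondrial transcription elongation factor, rose by 1.28 in F4/80high TAMs against PECs (adjusted p 0.0064; 2.05 with the block) and was 1.96 above F4/80low TAMs (adjusted p 0.00131).

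Regulators of mitochondrial genes were called in both directions, and against PECs at shares below those of all genes without slide as a block. Of 13 tested, 3 (23.1%) were higher and 2 (15.4%) lower in F4/80high TAMs than in PECs, beside 25.0% and 28.0% of all genes. In F4/80low TAMs 1 (7.69%) was higher and 3 (23.1%) lower, beside 22.7% and 29.2%. The block gave 3 higher and 1 lower in F4/80high TAMs, beside 16.5% and 17.7% of all genes. It gave 2 higher and 1 lower in F4/80low TAMs, beside 13.4% and 16.4%. Between the TAM subsets 3 (23.1%) were higher and 1 (7.69%) lower in F4/80high TAMs, beside 18.6% and 14.0% of all genes. Ppargc1b, a coactivator of mitochondrial biogenesis, rose by 1.70 in F4/80high TAMs (SE 0.30, adjusted p 0.0013) and by 2.96 in F4/80low TAMs (SE 0.30, adjusted p 6.77e-05), with 1.97 and 3.22 under the block. Its relative Ppargc1a fell by 2.17 and 2.06 (adjusted p 0.000309 and 0.000531), with −2.17 and −2.06 under the block. Gabpb1, a subunit of the ETS factor GABP, rose by 1.5 in F4/80high TAMs (SE 0.19, adjusted p 0.00018; 1.69 with the block) and was 1.03 above F4/80low TAMs (adjusted p 0.00317). Nrf1, which binds the NRF1 motif, was called in no comparison (0.49, −0.19 and 0.68; adjusted p 0.133, 0.566 and 0.0715).

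Cytosolic ribosomal proteins and respiratory chain subunits, measured on the same arrays, gave other counts. Of 43 cytosolic ribosomal protein genes 11 (25.6%) were higher and none lower in F4/80high TAMs than in PECs (median 0.28). Beside them, 25.0% of all genes were higher and 28.0% lower. In F4/80low TAMs 20 (46.5%) were higher and none lower (median 0.44), beside 22.7% and 29.2% of all genes. Under the slide block 5 and 8 were higher and none lower. The direction in F4/80high TAMs depended on the scaling, since the authors' deposited value table gave 5 higher and 5 lower and quantile normalization 3 higher and 1 lower. Rps3, of the small cytosolic subunit, rose by 0.77 in F4/80high TAMs (adjusted p 0.00715; 0.68 with the block, not called) and by 1.12 in F4/80low TAMs (adjusted p 0.0011; 1.03 with the block). Of 60 nuclear genes for respiratory chain subunits, 37 (61.7%) were lower and none higher in F4/80high TAMs than in F4/80low TAMs (median −0.61). In that comparison the mitoribosomal genes split 8 lower and 11 higher, and 14.0% of all genes were lower and 18.6% higher. Under the 5 other scalings and background corrections run, between 32 and 55 of the 60 were lower and none was higher. Ndufa4, a subunit of complex IV, fell by 1.53 in this comparison (SE 0.19, adjusted p 0.000382) and by 2.33 when F4/80high TAMs were set beside PECs (SE 0.19, adjusted p 1.19e-05; −2.05 with the block). Against PECs, 28 of the 60 (46.7%) were lower and none higher in F4/80high TAMs (5 lower with the block). In F4/80low TAMs 12 (20%) were higher and 4 (6.67%) lower (7 higher with the block), a split of 5 higher and 18 lower after normexp. Of 23 cell cycle genes, 14 (60.9%) were higher in F4/80high TAMs than in PECs and none lower, and 10 (43.5%) were higher and 1 lower in F4/80low TAMs. With slide as a block 3 and 1 were higher. The difference between the gene groups was not tested.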

How the data were processed

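RNA of 9 samples was labelled with Cy3 and hybridised to Agilent arrays of mouse build mm9. The deposited scanner files hold linear spot intensity, written by Agilent Feature Extraction 10.5.1.1 after its background subtraction, per the file headers. The deposited value table holds log2 values whose normalization and probe filter are not given in the sources used here; its 9703 probes correlated at 0.960 to 0.978 with the scanner values of the same array, column medians were 8.26 to 8.35, its centring is unknown, and it served only as an alternative. Each array's 75th percentile of the intensity lay between 53.5 and 97.3.

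Control spots and spots marked as outliers (103 to 307 an array) were left out. Each array was scaled on the log2 scale to the 75th percentile of its non-control spots, and values were averaged over the spots of a probe. Probes took RefSeq symbols where an accession matched (26407 of 55681 probes, 3092 renamed). The 21194 probes that stood well above background throughout any 1 group of 3 arrays were kept, and a gene was read from its brightest probe (16461 genes). Genes were compared in limma 3.58.1 (lmFit and eBayes, R 4.3.3), with all 9 arrays in 1 fit, 3 contrasts and Benjamini-Hochberg adjustment at 0.05 within each; standard errors had a median of 0.236 on the log2 scale, and the number of arrays limits precision. The code was tested on simulated data in which 200 of 16450 genes were changed. At changes of 0.5, 1 and 1.5 on the log2 scale, 0, 34 and 139 of the 200 were recovered, with 0, 2 and 11 false calls. Far more genes were called in the real data than were changed there, so these rates do not carry over. A gene that was not called may still differ.

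Members with values on every array include the 5 with the largest fold change in each direction and comparison among called members whose groups did not overlap. The others are those called in opposite directions, those not above background on every array, and Mrpl12, Mrps12, Mrps18b, Mrpl3, Mrps16 and Mrps34 for their roles. Values of Mrpl47 were added later. The members, lists and roles were chosen with earlier results of these data known. Slide comes from the file headers. Replicate numbers come from the labels: residuals of F4/80high and F4/80low TAM arrays of the same number correlated at 0.234, 0.171 and 0.134 across genes, which are not independent replicates, so those numbers were taken to pair the TAM arrays; PEC arrays showed no such pairing. Alternatives were quantile normalization, median centring, another set of probes for the percentile, normexp correction (offset 50), no filter or a stricter one on dim probes, the mean over probes, the deposited value table, fits of the compared groups alone, replicate and slide as blocks, slide 1 alone, each array left out in turn, and the area of lost spots left out, the last added after seeing the data. Promoter windows are RefSeq's (GRCm38.p6); 67 of 77 members matched by symbol. Annotated overlaps between genes are those of RefSeq. The exon annotation of mm9 was not used here.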

Additional observations from a re-analysis of the deposited data

Results flagged for a closer look

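In 10 members the TAM subsets differed by the test of the difference itself, with opposite signs against PECs; each value is F4/80high TAMs minus F4/80low TAMs on the log2 scale. The differences were 0.93 for Mrpl1, 0.65 for Mrpl13, 0.63 for Mrpl22, 0.78 for Mrpl39, 0.67 for Mrpl46, 0.55 for Mrps18c, 0.56 for Mrps22 and 0.77 for Mrps27, all higher in F4/80high TAMs. They were −0.70 for Mrpl12 and −0.98 for Mrps35, both lower in F4/80high TAMs. Against PECs, Mrps35 alone of the 10 was called in both subsets. With slide as a block the sign of Mrps22 in F4/80low TAMs against PECs turned positive (0.09). Mrpl1 in F4/80high TAMs rests on replicate 3, as given above.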

How the results depend on the processing

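Counts of called members, 30 for F4/80high TAMs against PECs, 37 for F4/80low TAMs against PECs and 19 between the TAM subsets, changed with the slide, the scaling and single arrays. Apart from the main fit, shares of all genes are given above only for the fits with slide against PECs. The other counts therefore do not set the members apart from all genes. The slide block left 13 and 8 against PECs, with medians of −0.12 and −0.24, and slide 1 alone 9 and 6 with the same medians, and 13 between the TAM subsets. Leaving out 1 array gave 17 to 33, 16 to 42 and 6 to 16 called, and medians of −0.41 to −0.25, −0.55 to −0.40 and 0.12 to 0.20. For F4/80low TAMs against PECs, median centring gave 23 called, the percentile over probes above background on all arrays 22 with a median of −0.22, the deposited values 22, and quantile normalization a median of −0.26. The deposited table gave a median of −0.57 for F4/80high TAMs against PECs. That table holds 9703 probes, so fewer genes entered its fits, and the number of members among them is not given here. Its counts therefore differ in more than the scaling. Between the TAM subsets no filter gave 11 called, median centring a median of 0.065, and the median was reversed by quantile normalization (−0.048, beside −0.02 for all genes), by the percentile over probes above background on all arrays (−0.076, beside −0.15) and in the deposited table (−0.20, beside −0.03). Without the filter 35 were called for F4/80low TAMs against PECs. With the replicate block 24, 31 and 15 members were called. Every group holds the same replicate numbers, so this block cannot alter a fold change or its direction. Among members named with their values, it lost the calls of Mrps15 between the TAM subsets (0.61) and of Mrpl32 (0.44) and Mrpl12 (−0.58) in F4/80high TAMs. It also lost those of Mrpl13 (−0.49), Mrpl39 (−0.55), Mrpl46 (−0.46) and Mrps35 (0.46) in F4/80low TAMs.

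Values that were not called changed sign as follows; the cause was not tested. For F4/80high TAMs against PECs, Mrps18b (0.22) and Mrps34 (0.054) did so in both fits with slide, Mrpl13 with normexp (−0.010), and Mrpl38 without replicate 3 or the area of lost spots (0.015 in both; −2.32 to 0.015 over single arrays left out). For F4/80low TAMs against PECs, Mrpl3 did so with quantile normalization (0.13), median centring (0.081), the percentile over probes above background on all arrays (0.17) and both fits with slide (0.044), and Mrpl41 with the mean over probes (0.12). Normexp turned Mrpl45 (−0.20), Mrpl32 (−0.13), Mrpl12 (−0.13), Mrps18b (−0.25) and Mrpl38 (−0.066). Leaving out PECs replicate 1 turned Mrpl12 (−0.060, with up to 0.25 for other arrays), Mrps18b (−0.20) and Mrpl38 (−0.10), and leaving out F4/80low TAMs replicate 3 turned Mrps18b (−0.10) and Mrpl38 (−0.15, with up to 0.10 for other arrays). Between the TAM subsets, Mrps12 (−0.035 and −0.045) and Mrps16 (−0.086 and −0.059) turned with quantile normalization and with the percentile over probes above background on all arrays, Mrps23 with the mean over probes (0.071), and Mrpl35 (0.35) and Mrpl38 (0.0057) without F4/80high TAMs replicate 3 or the area of lost spots, with −1.03 and −2.33 as the other ends over single arrays left out. The members named by rule gave 44 called results with 791 alternative values. Of these, 624 kept direction and call, 167 lost the call and none changed direction. Most of these members were picked for large called differences without overlap. The replicate block and the fits of the compared groups alone also leave fold changes as they were, so a kept direction says little. Of 756 alternative values for the 43 results of these members that were not called, 41 gained a call. Among them was Mrpl51 (−0.72, −0.55, −0.69 and −0.71) between the TAM subsets with quantile normalization, median centring, the percentile over probes above background on all arrays and the deposited values.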
